A study of Mus musculus with 8 samples.

Results

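Prostaglandin and leukotriene synthesis was examined in tumor-associated macrophages (TAMs) through 10 genes. They were chosen by symbol: Pla2g4a, which encodes the phospholipase that releases arachidonic acid, 5 genes of the cyclooxygenase branch (Ptgs1, Ptgs2, Ptges, Ptger2 and Ptger4) and 4 genes of the lipoxygenase branch (Alox5, Alox5ap, Lta4h and Ltc4s). All 10 were listed among the 53247 genes of the table. The TAMs were CD45+ CD11b+ MHCII+ F4/80+ cells sorted from subcutaneous LLC tumors (LLC is a Lewis lung carcinoma cell line of the mouse) 14 days after implantation. There were 4 samples from WT mice and 4 from miR-21-/- mice (miR-21 null in the labels), all of strain C57/BL6 and 10 weeks old, and labelled as biological replicates. The tumor cells were the same in both genotypes, and the miRNA was missing from the whole host and not from TAMs alone. Samples of each genotype are numbered here by their order in the listing. The label of miR-21-/- sample 1 joins a pair of sample numbers, and it was counted as 1 replicate. For the other miR-21-/- samples the order differs from the number or letter in their labels. The comparison asks which genes of the pathway differed in level between TAMs of miR-21-/- and WT hosts, and whether the branches differed in this.

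Arachidonic acid is cut from membrane phospholipids by cytosolic phospholipase A2 and is then oxidised along separate routes. Cyclooxygenases turn it into prostaglandin H2, from which terminal synthases make prostaglandin E2, prostaglandin D2, thromboxane and others, and prostaglandin E2 signals through receptors that include EP2 and EP4, both coupled to cyclic AMP. 5-lipoxygenase, helped by its activating protein, makes leukotriene A4, which is converted to leukotriene B4 or to the cysteinyl leukotrienes. In macrophages Ptgs1 is usually the constitutive cyclooxygenase gene and Ptgs2 the inducible one.

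The miRNA absent from the miR-21-/- hosts is shown first, with its seed (bases 2 to 8, counted from the 5′ end) in capitals, because pairing to the seed is the usual way in which a miRNA recognises an mRNA. It is encoded on the minus strand of chr11:86584120-86584141 (GRCm38.p6; sequence from RefSeq).
mmu-miR-21a-5p: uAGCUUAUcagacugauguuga

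Matches to this seed were looked for in 3′ UTRs, taking the longest that GENCODE gives for a gene. No member had a match of 7 or 8 bases, whereas 12.4% of 11449 tested genes with a 3′ UTR had one. Ptgs2 and Ptger2 each held 1 match of 6 bases, at 3′ UTR positions 578 and 240, counted from the first base after the stop codon. Among the tested genes, 26.6% had a match of 6 or more bases. These were the only seed matches among the members and are printed below with the match in capitals, in the sense of the mRNA. A match is a description of the sequence and not a measured site.
Ptgs2 3′ UTR: tcttactttctTAAGCTgtcaggtttgt
Ptger2 3′ UTR: cccagttgattTAAGCTttcctgttgag

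Values are CPM (counts per 1e+06 reads) as deposited, to each of which the authors had added 0.0001. Depth, read from the steps between low values, was 20.2 to 33.4 per sample in units of 1e+06 reads, and 1 read stood for 0.02998 to 0.0495 CPM. Intervals were not computed for single values, and precision rests on the 4 samples per genotype. The 8 macrophage markers summed to 7393 to 8390 CPM in WT samples and 6584 to 7947 CPM in miR-21-/- samples, with overlap. Within that list Adgre1, which encodes F4/80, differed by -0.38 and Csf1r by -0.48 on the log2 scale, both with non-overlapping genotypes and under the fold limit used below. Fcgr1, which encodes an Fc receptor, differed by 0.75 (limma adjusted p = 0.000561), also without overlap, and was the only gene of the list past that threshold. Mir21a itself was listed at 0.0001 in all 8 samples, WT included, so it could not be used to check the labels. Markers of other cells also moved with the genotype, in both directions, and most lists are given beside the members below. The monocyte markers summed to 503 to 920 CPM in WT samples and 408 to 722 CPM in miR-21-/- samples. Their sum overlapped, as did those of the NK cell and endothelial markers, and no tested gene of these lists passed. Plac8 (monocytes) differed by -0.96 and Prf1 (NK cells) by 1.16 on the log2 scale (limma adjusted p = 0.00867 and 0.0261). In bulk RNA, fewer cells of a type and less RNA per cell cannot be told apart.

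Differences between genotypes are log2 fold changes, miR-21-/- over WT, of log2(CPM + 1) values, and the added 1 makes the change of low genes look smaller. They were fitted with limma for the 13850 genes that averaged 1 per 1e+06 or more, with Benjamini-Hochberg adjustment across this whole set. A gene passed the threshold where the adjusted p did not exceed 0.005 and the fold change was above 1.5, as did 7.12% of all tested genes (2.89% higher and 4.23% lower in miR-21-/- TAMs). This balance depended on the scaling: 40.6% of the genes past the threshold were higher here and 60.3% under median-of-ratios scaling. Of the 10 members 9 were tested, and 5 of the 9 passed. Ptgs2 and Ptger2 rose, and Ptgs1, Ptger4 and Alox5 fell. Under other settings, or without 1 of the samples, the count lay between 1 and 5, with Ptgs1 in it each time. The cyclooxygenase branch held 4 of these 5, among its 5 tested genes, and the lipoxygenase branch 1, among 3 tested. The genotypes did not overlap for the same 5 members, against 35.1% of all tested genes. The median log2 fold change was -0.37 over the cyclooxygenase members and -0.16 over the tested lipoxygenase members, beside -0.10 over all tested genes. Leaving out single samples gave -0.50 to -0.18 and -0.21 to -0.12, and without miR-21-/- sample 4 the order turned, at -0.18 for the cyclooxygenase and -0.19 for the lipoxygenase members. With so few genes per branch these medians describe the members and do not test the branches against each other.

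**Figure D1:**
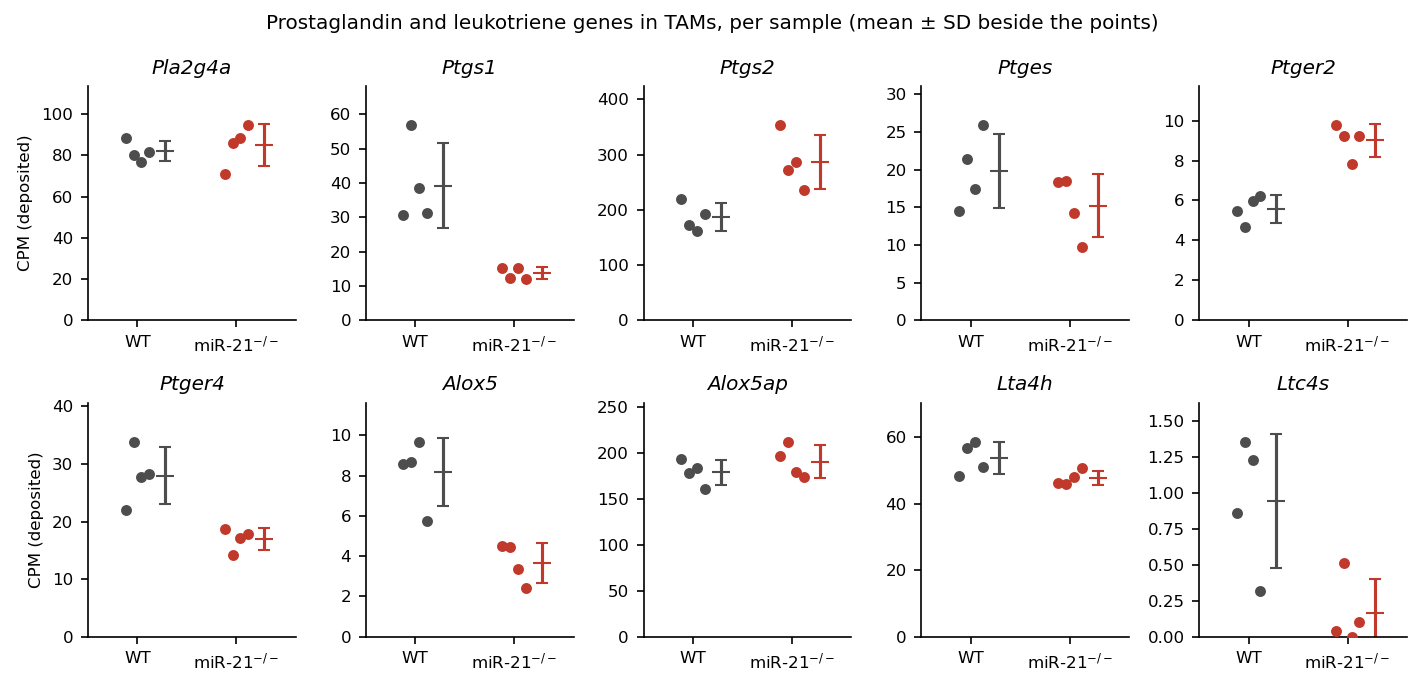
CPM (vertical axes, each from 0) of the 10 members in each of the 4 WT (grey) and 4 miR-21-/- (red) TAM samples, with the mean and SD beside the points. Ptgs1, Ptger4 and Alox5 lie lower and Ptgs2 and Ptger2 higher in every miR-21-/- sample than in any WT sample, whereas Pla2g4a, Ptges, Alox5ap, Lta4h and Ltc4s overlap.

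Release of arachidonic acid was represented by Pla2g4a (chr1:149829618-149961291, minus strand). Its level was 88.6, 80.4, 77.0 and 81.8 CPM in WT samples 1 to 4 and 71.2, 85.9, 88.4 and 94.8 CPM in miR-21-/- samples 1 to 4. The lowest and the highest values were both in miR-21-/- samples, and the genotypes overlapped. The log2 fold change was 0.05 (SE 0.08, limma adjusted p = 0.692), with an interval from -0.14 to 0.24, and it turned to -0.0063 without miR-21-/- sample 4.

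The cyclooxygenase genes moved in opposite directions. Ptgs1 (chr2:36230426-36252273, plus strand), which encodes COX-1, had 30.5, 56.9, 38.4 and 31.1 CPM in the WT samples and 15.1, 12.4, 15.1 and 11.9 CPM in the miR-21-/- samples. WT sample 2 stood highest, and the lowest WT sample was still above every miR-21-/- sample. Mean levels were 39.2 ± 12.3 and 13.7 ± 1.74 CPM (SD, n = 4 each), and the log2 fold change was -1.42 (SE 0.18, limma adjusted p = 0.000348), the lowest among the 9 tested members. Ptgs1 passed the threshold in all 17 alternative fits, including each fit without 1 of the samples. Gm43621, on the opposite strand, shares 2023 bases with the Ptgs1 gene and was at 0.344 to 2.33 CPM.

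Ptgs2 (chr1:150100031-150108228, plus strand), which encodes COX-2, had 220, 172, 162 and 192 CPM in the WT samples and 353, 272, 287 and 236 CPM in the miR-21-/- samples. The lowest miR-21-/- value lay just above the highest WT value. Mean levels were 186 ± 25.5 and 287 ± 49.2 CPM, and the log2 fold change was 0.61 (SE 0.13, limma adjusted p = 0.00461), a fitted fold of 1.53 against the limit of 1.5. Because it lay so near both limits, Ptgs2 passed the threshold in 7 of the 17 alternative fits. It kept its direction in all 17, with an adjusted p of 0.0241 or less. When single samples were left out the log2 fold change was 0.51 to 0.70, and Ptgs2 passed only without WT sample 1 or miR-21-/- sample 4. The long noncoding RNA gene Ptgs2os2, downstream of Ptgs2 on the opposite strand (chr1:150159043-150164949), was at 3.46 to 3.68 CPM in WT samples and 6.45 to 9.22 CPM in miR-21-/- samples, and passed the threshold with a log2 fold change of 0.90 (SE 0.11, limma adjusted p = 0.000248). Its call was lost with a pseudocount of 10, where the log2 fold change was 0.37. Ptgs2os, the other antisense gene of the locus (chr1:150074873-150099964), was below the filter and overlapped, at 0.306 ± 0.225 CPM in WT samples and 0.304 ± 0.0839 CPM in miR-21-/- samples. Both were chosen after their values were seen.

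Within each sample the ratio of Ptgs2 to Ptgs1, as a difference of log2(CPM + 1) values, was 2.81, 1.58, 2.05 and 2.59 in the WT samples and 4.46, 4.35, 4.16 and 4.19 in the miR-21-/- samples. The genotypes did not overlap, and the mean ratio was higher in miR-21-/- TAMs by 2.03. A two-sided exact permutation test gave p = 0.0286, the smallest that 4 against 4 samples allow, and p = 0.0571 after adjustment over the 6 ratios tested.

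Promoters of both cyclooxygenase genes, from 250 bases before to 50 after the annotated start, are printed because the genes moved in opposite directions (GRCm38.p6, plus strand, sequence from RefSeq). They were searched on both strands for 8 motifs, and matches are in capitals. The Ptgs1 window (chr2:36230176-36230475) held GAGGAAG, a motif of PU.1, 24 bases before the start. The Ptgs2 window (chr1:150099781-150100080) held a pair of matches to the C/EBP pattern TTNNGNAA, at -69 and -25, and CGTCA, the cyclic AMP response element core, at position 14, which overlaps an E-box, CACGTG, at position 17.
Ptgs1 promoter: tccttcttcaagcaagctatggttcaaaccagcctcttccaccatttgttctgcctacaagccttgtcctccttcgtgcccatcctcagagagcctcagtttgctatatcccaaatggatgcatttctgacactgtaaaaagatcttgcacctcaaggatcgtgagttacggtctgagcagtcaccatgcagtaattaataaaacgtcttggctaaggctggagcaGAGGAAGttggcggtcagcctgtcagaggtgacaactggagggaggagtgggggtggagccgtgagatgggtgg
Ptgs2 promoter: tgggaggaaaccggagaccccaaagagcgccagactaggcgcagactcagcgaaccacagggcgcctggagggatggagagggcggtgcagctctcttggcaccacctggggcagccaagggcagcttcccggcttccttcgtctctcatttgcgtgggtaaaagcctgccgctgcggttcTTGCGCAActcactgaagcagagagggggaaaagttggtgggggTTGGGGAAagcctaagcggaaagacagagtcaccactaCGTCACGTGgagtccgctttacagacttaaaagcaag

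Among all 32851 RefSeq windows of the same length, GAGGAAG was in 13.6%, TTNNGNAA in 40.7%, CGTCA in 20.8% and CACGTG in 7.15%. Of the 10 members, 9 had a window. Alox5ap had none. CGTCA and CACGTG were in the Ptgs2 window alone among the members, GAGGAAG was also in that of Ltc4s, and TTNNGNAA also in those of Pla2g4a, Ptges and Ptger2. No member's window held the NF-kB motif (4.51% of all windows), TTCNNNGAA of STAT factors (8.30%), GAAANNGAA of interferon regulatory factors (8.56%) or TGANTCA of AP-1 (7.81%). A match says only that these letters are in the window, and its absence only that they are not.

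**Figure D2:**
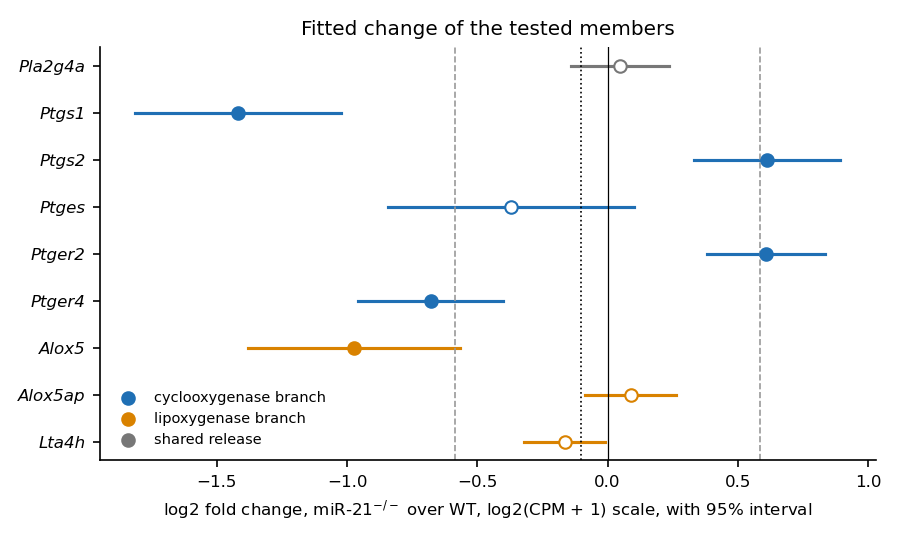
Log2 fold change, miR-21-/- over WT on the log2(CPM + 1) scale, of the 9 tested members, with the limma confidence interval as a line. Filled points passed the threshold, dashed lines mark a fold of 1.5 and the dotted line the median of all tested genes (-0.10). Ptgs1 lies farthest from 0 at -1.42, and Ptgs2 and Ptger2 lie just past the dashed line at 0.61.

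Ptges (chr2:30889471-30929864, minus strand) encodes the inducible synthase that makes prostaglandin E2 from the cyclooxygenase product. It had 14.5, 21.4, 17.4 and 25.9 CPM in the WT samples and 18.4, 18.5, 14.3 and 9.69 CPM in the miR-21-/- samples. The ranges overlapped broadly, and the log2 fold change of -0.37 (SE 0.21, limma adjusted p = 0.200) did not pass the test. It was -0.18 without miR-21-/- sample 4 and -0.50 without WT sample 1. Relative to Ptgs2 in the same sample, Ptges was lower by 0.98 on the log2 scale in miR-21-/- TAMs, with WT sample 1 inside the miR-21-/- range (exact permutation p = 0.0571, adjusted p = 0.0686).

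The prostaglandin E2 receptor genes also moved in opposite directions. Ptger2 (chr14:44988195-45003821, plus strand), which encodes EP2, had 5.45, 4.67, 5.96 and 6.24 CPM in the WT samples and 9.78, 9.22, 7.83 and 9.25 CPM in the miR-21-/- samples. All miR-21-/- values were above all WT values, with a log2 fold change of 0.61 (SE 0.10, limma adjusted p = 0.00167). The fitted fold of 1.53 was near the limit, and Ptger2 passed in 10 of 17 alternative fits, but not without WT sample 2 or without miR-21-/- sample 1, 2 or 4 (0.54 to 0.67 over all fits that left out a sample). With a pseudocount of 10 the log2 fold change was 0.29. Its direction held in all 17, with an adjusted p of 0.00726 or less. On the opposite strand, Gm17173 shares 15627 bases with the Ptger2 gene (0.184 to 0.476 CPM) and AC154627.2 shares 1506 (0.617 CPM at most).

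Ptger4 (chr15:5206661-5244188, minus strand), which encodes EP4, had 22.0, 33.9, 27.8 and 28.3 CPM in the WT samples and 18.7, 14.2, 17.2 and 17.9 CPM in the miR-21-/- samples. Every miR-21-/- sample was below every WT sample, and the log2 fold change was -0.68 (SE 0.13, limma adjusted p = 0.00266). Ptger4 passed in 6 of 17 alternative fits, with the same direction in all and an adjusted p of 0.0143 or less. With single samples left out it passed only without WT sample 1 or miR-21-/- sample 1 (-0.79 to -0.58 over these fits). It shares 11677 bases with Ttc33 on the opposite strand (10.0 to 12.7 CPM), and whether the counting used strand is not given in the sources used here.

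The ratio of Ptger4 to Ptger2 on the log2 scale was 1.83, 2.62, 2.05 and 2.02 in the WT samples and 0.87, 0.57, 1.04 and 0.88 in the miR-21-/- samples. It was lower in miR-21-/- TAMs by 1.29, with no overlap (exact permutation p = 0.0286, adjusted p = 0.0571). With a pseudocount of 10 the difference was smaller in size, at -0.77 (exact permutation adjusted p = 0.0343). That adjusted p is lower only because more of the 6 ratios then reached the smallest p possible.

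On the lipoxygenase side, Alox5 (chr6:116410077-116461179, minus strand), which encodes 5-lipoxygenase, had 8.59, 8.66, 9.70 and 5.74 CPM in the WT samples and 4.52, 4.44, 3.38 and 2.41 CPM in the miR-21-/- samples. WT sample 4 was the nearest to the miR-21-/- range without entering it. The log2 fold change was -0.97 (SE 0.18, limma adjusted p = 0.00291). Alox5 passed in 7 of 17 alternative fits, kept its direction in all, and had an adjusted p of 0.0168 or less. With single samples left out it passed only without WT sample 4 or miR-21-/- sample 1 (-1.12 to -0.83 over these fits). With a pseudocount of 10 the log2 fold change was -0.41. Alox5 is also expressed by granulocytes, and the 8 neutrophil markers summed to 823 to 1238 CPM in WT samples and 608 to 789 CPM in miR-21-/- samples, lower in mean for 7 of 8. Among them Mmp8 fell by 0.81 on the log2 scale (limma adjusted p = 0.00379, past the threshold in 7 of 17 alternative fits). Ly6g was the marker with a higher mean in miR-21-/- samples. It averaged 1.91 CPM in WT samples and 2.59 CPM in miR-21-/- samples, with overlap (1.09 to 3.17 CPM over all samples). The part of these markers in the Alox5 result was not tested.

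Alox5ap (chr5:149264767-149288154, plus strand), which encodes the protein that presents arachidonic acid to 5-lipoxygenase, had 193, 179, 183 and 160 CPM in the WT samples and 197, 213, 179 and 174 CPM in the miR-21-/- samples. It shares 5118 bases with Gm19719 on the opposite strand, which was at 4.32 to 8.20 CPM. The genotypes overlapped, and the log2 fold change of 0.09 (SE 0.08, limma adjusted p = 0.401) had an interval from -0.08 to 0.26. The ratio of Alox5ap to Alox5 was 4.34, 4.22, 4.11 and 4.58 in the WT samples and 5.17, 5.30, 5.36 and 5.68 in the miR-21-/- samples. It was higher in miR-21-/- TAMs by 1.06, with no overlap (exact permutation p = 0.0286, adjusted p = 0.0571). With a pseudocount of 10 the difference was smaller, at 0.49 (exact permutation adjusted p = 0.0343, lower only because more of the 6 ratios reached the smallest p possible).

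Lta4h (chr10:93453411-93484876, plus strand), which encodes the hydrolase that makes leukotriene B4, had 48.4, 56.9, 58.8 and 51.1 CPM in the WT samples and 46.3, 45.9, 48.2 and 50.7 CPM in the miR-21-/- samples. The log2 fold change was -0.16 (SE 0.07, limma adjusted p = 0.0918). WT sample 1 lay within the miR-21-/- range.

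Ltc4s (chr11:50236461-50238617, minus strand) encodes the synthase of leukotriene C4, the first cysteinyl leukotriene. It was below the expression filter and was not tested among the 13850 genes. It had 0.861, 1.36, 1.23 and 0.319 CPM in the WT samples, about 26, 39, 25 and 8 reads. The miR-21-/- samples had 0.0374, 0.510, 0.0001 and 0.0993 CPM, about 1, 17, 0 and 3 reads. For the sample at 0 reads, a level of up to 0.115 CPM (3 reads) is allowed by counting error. The second miR-21-/- sample lay above the fourth WT sample, and an exact permutation test of log2(CPM + 1) gave p = 0.0571 for a difference of -0.73. Relative to Lta4h in the same sample the difference was -0.56 (exact permutation p = 0.0571, adjusted p = 0.0686). This difference turned to 0.034 with a pseudocount of 10 and was -2.05 with a pseudocount of 0.1. Gm26542, on the opposite strand, shares 1665 bases with the Ltc4s gene and was at 0.0993 to 0.584 CPM. Whether the counting used strand is not given in the sources used here.

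Ltc4s is known to be expressed by mast cells, basophils and eosinophils, and genes of these cells moved with the genotype. Of 12 mast cell and basophil markers, 10 had a lower mean in miR-21-/- samples and 5 were under 1 CPM in every sample. Their sum was dominated by Hdc and overlapped, at 128 to 167 CPM in WT samples and 145 to 213 CPM in miR-21-/- samples. Mcpt4, a mast cell protease gene, fell from 1.31 to 2.88 CPM to 0.463 to 0.933 CPM (limma adjusted p = 0.00475), a call kept in 4 of 16 alternative fits. The 5 eosinophil markers summed to 12.7 to 24.9 CPM in WT samples and 4.78 to 7.08 CPM in miR-21-/- samples. Ccr3 and Siglecf fell, and Ccr3 alone, at 11.1 to 23.0 CPM in WT samples, made up most of the sum. Of the other 3, Prg2 and Il5ra were under 1 CPM in every sample with means slightly higher in miR-21-/- samples, and Epx, which encodes eosinophil peroxidase, was at 0.0001 throughout. The same sort was meant to select macrophages, and how many mast cells, basophils or eosinophils passed it was not measured. The part of these markers in the Ltc4s values was not tested.

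Other marker lists bear on the cyclooxygenase genes. The 5 fibroblast markers summed to 37.0 to 81.1 CPM in WT samples and 6.83 to 25.8 CPM in miR-21-/- samples, with all 5 means lower. The 5 B cell markers summed to 11.4 to 17.6 CPM and 3.84 to 11.3 CPM. The 5 epithelial markers, which the tumor cells could carry, summed to 18.8 to 24.8 CPM and 12.7 to 17.9 CPM. All 3 lists were thus lower in miR-21-/- samples without overlap, as Ptgs1 and Ptger4 were, and their part in those results was not tested. The sort was for CD45+ CD11b+ MHCII+ F4/80+ cells, and how many fibroblasts, B cells or tumor cells passed it was not measured. Platelets are rich in Ptgs1 protein, and of 7 platelet markers 6 were under 1 CPM in every sample, whereas Ppbp was at 20.8 to 104 CPM with overlapping genotypes.

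Markers of lymphocytes and dendritic cells moved in both directions. The 7 T cell markers summed to 18.4 to 39.9 CPM in WT samples and 8.45 to 37.6 CPM in miR-21-/- samples, with overlap. Cd4 fell, from 5.93 to 30.0 CPM to 0.845 to 3.40 CPM (log2 fold change -2.35, limma adjusted p = 0.00206), the only 1 of the 7 with a lower mean. Cd3d, Cd3e and Cd3g averaged 1.08, 2.20 and 2.08 CPM in WT samples and 1.14, 3.22 and 3.14 CPM in miR-21-/- samples, with overlap. Cd8a, at 1.32 to 2.19 CPM and 2.80 to 11.6 CPM, and the dendritic cell gene Clec9a, at 2.30 to 2.74 CPM and 4.18 to 13.97 CPM, were higher without overlap in miR-21-/- samples, as Ptgs2 and Ptger2 were (limma adjusted p = 0.00804 and 0.00532). Clec9a is 1 of 7 dendritic cell markers, of which 6 were tested. Their sum overlapped, at 11.2 to 19.9 CPM in WT samples and 15.2 to 38.4 CPM in miR-21-/- samples, and 4 of the 6 had a negative log2 fold change, down to -1.28 for Cd209a, none past the threshold. The part of these markers in those results was not tested.

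**Figure D3:**
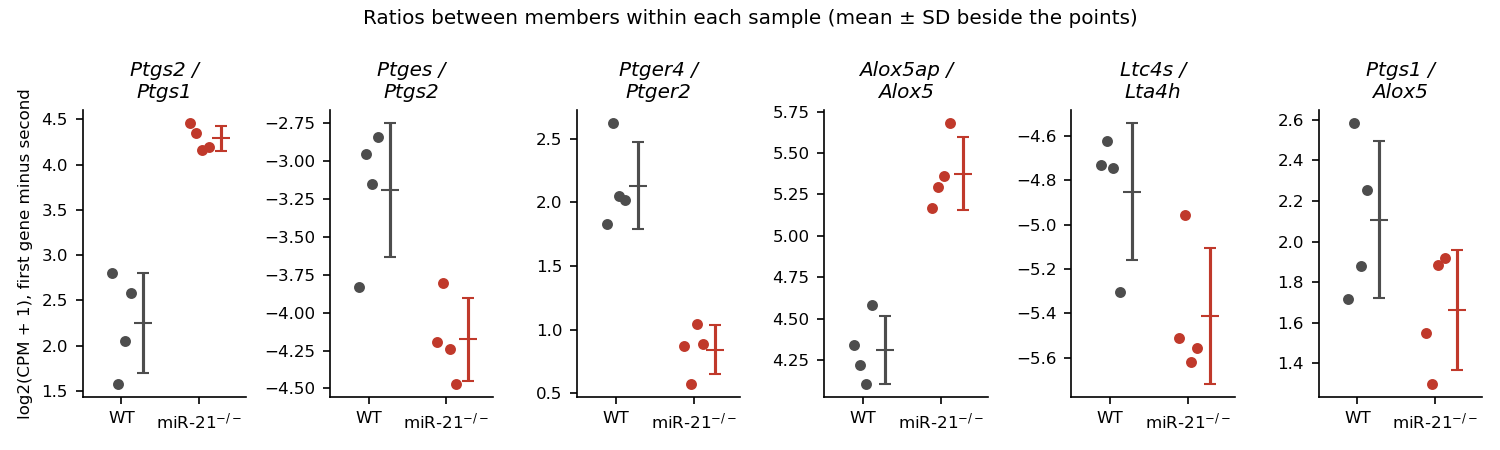
Difference of log2(CPM + 1) values between 2 members within each sample, for the 6 ratios tested, in 4 WT (grey) and 4 miR-21-/- (red) samples, with the mean and SD beside the points. The axes have separate ranges and do not start at 0, and the ratios Ptgs2 to Ptgs1, Ptger4 to Ptger2 and Alox5ap to Alox5 separate the genotypes (differences of 2.03, -1.29 and 1.06).

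The branches were compared through the enzymes that open them, with each cyclooxygenase set against 5-lipoxygenase. The ratio of Ptgs1 to Alox5 was 1.72, 2.58, 1.88 and 2.25 in the WT samples and 1.55, 1.30, 1.88 and 1.92 in the miR-21-/- samples. The difference of -0.45 did not pass the test (exact permutation p = 0.171), and the genotypes overlapped. With a pseudocount of 10 it was -0.62 (exact permutation adjusted p = 0.0343, from the smallest p possible). A pseudocount of 10 is above every Alox5 value (9.70 CPM at most). It shrinks the log2 fold change of Alox5 to -0.41 and that of Ptgs1 to -1.03, so this setting does not give a stronger result. Without WT sample 2 the difference was -0.29. Both genes fell, and this ratio does not show that they fell alike. The ratio of Ptgs2 to Alox5, added after the values were seen and given without a test, was 4.52, 4.16, 3.93 and 4.84 in the WT samples and 6.01, 5.65, 6.04 and 6.12 in the miR-21-/- samples. It was higher in miR-21-/- TAMs by 1.59, with no overlap.

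Levels were compared between genes only per length, as CPM per kilobase of the longest protein-coding transcript. Alox5ap had the highest mean level, at 143 ± 11 in WT and 152 ± 14.1 in miR-21-/- TAMs. Ptgs2 followed with 41.9 ± 5.73 and 64.4 ± 11.1, in both genotypes above the range of every gene below it. Pla2g4a (28.7 in WT and 29.8 in miR-21-/-) and Lta4h (26.5 and 23.6) came next and overlapped in range in each genotype.

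The order among the lower genes differed between genotypes. In WT TAMs Ptgs1 stood at 13.7 ± 4.28 CPM per kilobase, above Ptger4 at 8.45 ± 1.47 and Ptges at 5.43 ± 1.36, and the ranges of the latter pair overlapped. In miR-21-/- TAMs Ptger4 (5.14 ± 0.591), Ptgs1 (4.76 ± 0.606) and Ptges (4.17 ± 1.14) overlapped in range. Alox5 was above Ptger2 in WT TAMs (2.90 against 1.51), and below it in miR-21-/- TAMs (1.31 against 2.45), in each case without overlap. Ltc4s was lowest in mean, at 1.31 ± 0.649 and 0.226 ± 0.329, and in WT TAMs its range overlapped that of Ptger2.

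**Figure D4:**
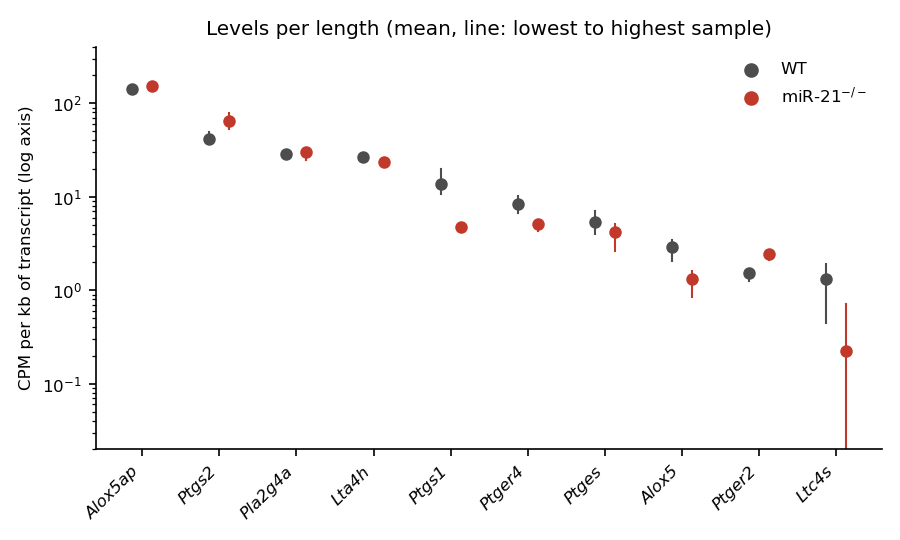
Mean CPM per kilobase of transcript (log axis) of the 10 members in WT (grey) and miR-21-/- (red) TAMs, with lines from the lowest to the highest of 4 samples. Alox5ap stands highest (143 and 152), and the line of Ltc4s in miR-21-/- TAMs runs off the axis because 1 sample had no reads.

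The rest of the pathway was described from 65 further genes, of which 44 were tested. Of these 6 passed the threshold, or 13.6% beside 7.12% of all tested genes, with 4 that rose and 2 that fell. On the cyclooxygenase side 3 of 13 tested genes passed, with a median log2 fold change of -0.32, and on the lipoxygenase side 2 of 18, with a median of -0.02. The genotypes did not overlap for 10 of the 13 and for 6 of the 18 (33.3%), the latter close to the 35.1% of all tested genes. A sixth gene belonged to the phospholipases, which serve both sides.

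Among the prostanoid synthases, Tbxas1, which encodes thromboxane synthase, was at 39.6, 48.5, 50.3 and 33.9 CPM in WT samples and 75.9, 69.9, 61.1 and 69.4 CPM in miR-21-/- samples. It rose by 0.68 on the log2 scale (SE 0.12, limma adjusted p = 0.00202), with no overlap. Tbxas1 passed in 9 of 17 alternative fits, at 0.58 to 0.80, and was lost without WT sample 1 or 4 and without miR-21-/- sample 1, 2 or 4. Hpgds, the hematopoietic prostaglandin D2 synthase gene, was at 109, 150, 116 and 99.5 CPM in WT samples and 59.3, 62.9, 73.4 and 72.1 CPM in miR-21-/- samples. It fell by 0.80 (SE 0.12, limma adjusted p = 0.000871), with every miR-21-/- sample below every WT sample. Hpgds is also a gene of mast cells, which the sort for macrophages was not meant to collect. Among the markers given above for these cells Mcpt4 fell, whereas the summed level overlapped and Hdc averaged 138 CPM in WT samples and 170.3 CPM in miR-21-/- samples, and their part in this result was not tested. Fam213b, which encodes a prostaglandin F synthase, fell by 0.90 (limma adjusted p = 5.62e-05), from 40.2 to 49.1 CPM to 21.1 to 25.97 CPM. The other 4 tested synthase genes did not pass the threshold.

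No other prostanoid receptor passed, though Ptgir did with the order number of the samples as a block. Ptgir, the prostacyclin receptor gene, was at 7.96, 6.34, 7.57 and 4.18 CPM in WT samples and 14.0, 12.1, 11 and 8.80 CPM in miR-21-/- samples, a log2 fold change of 0.75 without overlap (SE 0.18, limma adjusted p = 0.0106). Ptger1, which encodes EP1, had a log2 fold change of -0.21 (limma adjusted p = 0.0216). The other 5 receptor genes, Ptger3, Ptgdr, Ptgdr2, Ptgfr and Tbxa2r, were below the filter.

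For transport and inactivation of prostanoids, none of 4 tested genes passed. Hpgd, which encodes the dehydrogenase that inactivates prostaglandin E2, had 0.301, 9.21, 7.62 and 0.199 CPM in the WT samples and 0.630 to 0.970 CPM in the miR-21-/- samples. The WT samples thus fell into a high and a low pair around the miR-21-/- values (log2 fold change -0.91, SE 0.66, limma adjusted p = 0.304). Ptgr1, a prostaglandin reductase gene, had the highest log2 fold change of this list, 0.45 (limma adjusted p = 0.0337).

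Among 13 tested genes of phospholipases and arachidonate handling, Pla2g16, which encodes a phospholipase of adipose tissue that is also present in other cells, was the only one past the threshold. It had 9.33, 8.45, 11.9 and 14.1 CPM in the WT samples and 31.7, 33.9, 31.5 and 37.6 CPM in the miR-21-/- samples, a log2 fold change of 1.56 (SE 0.14, limma adjusted p = 4.92e-05). Pla2g15, the lysosomal phospholipase A2 gene, had the lowest log2 fold change, -0.54 (limma adjusted p = 0.00260), under the fold limit.

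**Figure D5:**
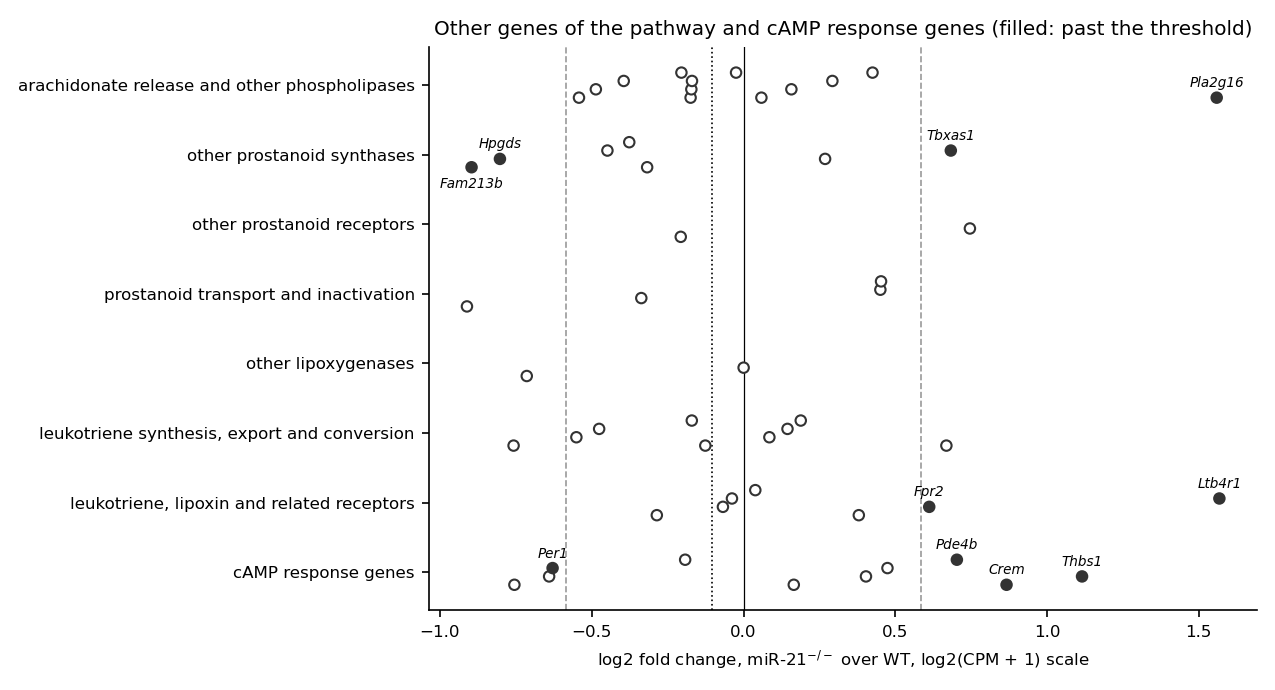
Log2 fold change, miR-21-/- over WT on the log2(CPM + 1) scale, of the 44 other tested pathway genes and 10 cyclic AMP response genes, 1 row per list, with dashed lines at a fold of 1.5 and a dotted line at the median of all tested genes. Filled points passed the threshold, and Ltb4r1 (1.57) and Pla2g16 (1.56) lie farthest to the right.

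On the lipoxygenase side the genes past the threshold encode receptors. Ltb4r1, the high-affinity leukotriene B4 receptor gene, had 26.7, 18.6, 21.1 and 17.3 CPM in the WT samples and 72.1, 66.3, 58.6 and 56.7 CPM in the miR-21-/- samples. The lowest miR-21-/- value was above the highest WT value by a wide margin, and the log2 fold change was 1.57 (SE 0.13, limma adjusted p = 2.99e-05). Fpr2, a formyl peptide receptor that also binds lipoxin A4, rose by 0.61 (SE 0.11, limma adjusted p = 0.00198), from 70.5 to 104 CPM to 116 to 136 CPM. Fpr2 passed in 9 of 17 alternative fits, at 0.53 to 0.73, and was lost without WT sample 1, 2 or 3 and without miR-21-/- sample 1, 2 or 4. Cysltr1, a cysteinyl leukotriene receptor gene, had the lowest log2 fold change of the 7 tested receptors, -0.29 (limma adjusted p = 0.0599), with overlap.

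None of the 9 tested genes of leukotriene synthesis, export and conversion passed, but 3 did under an alternative: Abcc1 with median-of-ratios scaling, Mgst2 without miR-21-/- sample 1, and Cyp4f16 without WT sample 3 or 4 or miR-21-/- sample 4. Abcc1, which encodes the exporter of leukotriene C4, was at 155, 111, 155 and 110 CPM in WT samples and 216, 256, 178 and 192 CPM in miR-21-/- samples, with a log2 fold change of 0.67 and an adjusted p of 0.00595 by limma. Mgst2, which encodes a microsomal enzyme able to make leukotriene C4, had -0.76 (limma adjusted p = 0.0105). Neither of the other tested lipoxygenase genes passed: Alox8 had a log2 fold change of 0.00038 and Aloxe3 of -0.71 (limma adjusted p = 0.0169), and Alox15 was below the filter with 0.199 to 1.72 CPM.

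Because EP2 and EP4 raise cyclic AMP, 10 genes known to respond to it were also read. Of these 4 passed the threshold, in both directions, or 40% beside 7.12% of all tested genes. Crem and Pde4b passed in all 17 alternative fits, Thbs1 in 9 and Per1 in 4, each with the same direction throughout. Crem, a cyclic AMP responsive factor, rose from 13.7 to 18.1 CPM to 27.5 to 35.0 CPM (log2 fold change 0.87, limma adjusted p = 0.000269). Pde4b, a phosphodiesterase that degrades cyclic AMP, rose by 0.70 (limma adjusted p = 0.000184). Thbs1, which encodes thrombospondin 1, rose by 1.12 (limma adjusted p = 0.00328). Per1, a clock gene, fell by 0.63 (limma adjusted p = 0.00419), and Nr4a1, an orphan nuclear receptor gene, had the lowest log2 fold change, -0.75 (limma adjusted p = 0.0108). These genes respond to many other signals, and no prostaglandin was measured in these samples.

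The tested genes outside these lists with the profile most like that of Ptgs2 over the 8 samples, by the root mean square difference of mean-centred log2(CPM + 1) values, were Chst11 (0.077), Gm7334 (0.080) and Oasl2 (0.098). For Alox5 they were Serpinb8 (0.113), Igfbp4 (0.119) and Btbd11 (0.127). Chst11 had a mean of 23.6 CPM in WT samples and 37.2 CPM in TAMs of miR-21-/- mice, and Serpinb8 30.5 and 14.1 CPM. Likeness of profile over samples of 2 genotypes is a description, since the genotype is shared by all of these genes.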

How the data were processed

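Libraries of mRNA were made from sorted TAMs in 4 WT and 4 miR-21-/- samples. The authors deposited 1 CPM value per gene and sample, with 0.0001 added. The submitters' processing notes name STAR, Partek 7.0 and mm10. The counting rule, annotation and strand are not given in the sources used here. All 10 members have the same start in GENCODE vM21 (GRCm38). In each sample, 79.5% to 80.6% of low values were whole reads (within 0.1 read), so reads were not recovered for a count test.

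From the deposited values, log2(CPM + 1) was fitted with limma 3.58.1 (R 4.3.3, lmFit and eBayes with trend) on genotype, over genes averaging 1 or more per 1e+06 of the column totals. The threshold was the paper's. Ratios of members were compared with two-sided exact permutation tests. The model was tested on simulated data. Seed sites and transcript lengths came from GENCODE, promoters and the miRNA from RefSeq.

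Named genes were all members, and of each other pathway or response list every gene past the threshold and those at either end of its log2 fold changes. Pathway genes that passed only under an alternative were named too, as were Alox15 and the prostanoid receptor genes below the filter. Further genes were named because they overlap a member or were nearest to one in profile. Single genes of the marker lists, and Slco2a1, Pla2g2d and Ggt1, were named after their values were seen. Members and lists were chosen with earlier results of these data known. The alternatives were other pseudocounts, filters, scalings, eBayes settings, a block on the order number of the samples and leaving out samples.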

Additional observations from a re-analysis of the deposited data

Results flagged for a closer look

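The log2 ratio of Ltc4s to Lta4h was -4.96 in miR-21-/- sample 2, against -5.51 in the nearest and -5.62 in the farthest of the other 3 miR-21-/- samples. The gap to the nearest sample was 0.834 of the group's range, above Dixon's critical value for 4 samples. The ratio rests on about 17 reads of Ltc4s in that sample and 0 to 3 in the others. Of 32 groups examined in this way, 1 was picked out, and chance alone picks out about 1 in 20.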

How the results depend on the processing

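Ptgs1 passed the threshold in all 17 alternative fits, and Ptgs2, Ptger2, Ptger4 and Alox5 kept their direction with an adjusted p under 0.05 in all 17, though not the stricter limits. The number of members past the threshold was 5. It was 2 with a pseudocount of 10 (Ptgs1 and Ptgs2), 1 with no filter (Ptgs1), 2 under quantile normalization (Ptger2 and Ptgs1), 3 under median-of-ratios scaling (Ptger2, Ptgs1 and Ptgs2) and 1 to 4 when 1 sample was left out. It was 1 without WT sample 2 or without miR-21-/- sample 2, 2 without WT sample 3, miR-21-/- sample 3 or miR-21-/- sample 4, and 3 without WT sample 4 or miR-21-/- sample 1. With the order number of the samples, not the number in their labels, as a block it was 3 (Alox5, Ptgs1 and Ptgs2). Samples with the same order number correlated by 0.08, -0.11, -0.14 and 0.22, and 1 of the 4 WT samples correlated best with its own number. This order was therefore not taken to pair samples. Pairing by the numbers in the sample labels was not examined. The other pathway genes past the threshold, 6 in the main analysis, were 3 with no filter and 26 with an adjusted p limit of 0.05 and no fold limit. Fam213b, Ltb4r1 and Pla2g16 passed in all 17 fits, Hpgds in 16 (not with no filter), and Tbxas1 and Fpr2 in 9 each. With a pseudocount of 10 or no filter both were lost, and Tbxas1 also with the block. Genes that passed only under an alternative with the same limits were Abcc1, Ptgir, Mgst2, Cyp4f16, Lpcat2 (without miR-21-/- sample 1) and Pla2g15 (without WT sample 1 or miR-21-/- sample 4). Without a filter 30634 genes were tested.

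Median-of-ratios scaling moved the median of all genes from -0.10 to 0.0015 and the share of higher genes among those past the threshold from 40.6% to 60.3% (59.3% under quantile normalization, 55.5% with a pseudocount of 10, 52.4% with no filter). The lipoxygenase median became -0.049. Without single samples the cyclooxygenase median, -0.37 with all, was -0.50 to -0.18. Over all genes, 986 passed, against 452 with a pseudocount of 10 and 515 with no filter. The cause of these shifts was not tested.

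With a pseudocount of 10 the differences of the ratios were 1.62 (Ptgs2 to Ptgs1), -0.83 (Ptges to Ptgs2), -0.77 (Ptger4 to Ptger2), 0.49 (Alox5ap to Alox5) and -0.62 (Ptgs1 to Alox5), each with an exact permutation p of 0.0343 after adjustment, and the ratio of Ltc4s to Lta4h reversed to 0.034, whereas with a pseudocount of 0.1 it was -2.05 against -0.56 with 1. Leaving out 1 sample gave 1.81 to 2.22, -1.20 to -0.87, -1.39 to -1.12, 0.96 to 1.15, -0.58 to -0.29 and, for Ltc4s to Lta4h, -0.71 to -0.48, and the first 4 had an adjusted exact p of 0.0429 without WT sample 1. The adjusted exact permutation p of 0.0343 or 0.0429 reflects how many of the 6 ratios reached the smallest p possible. It does not mark stronger differences. Pla2g4a reversed to -0.0063 without miR-21-/- sample 4, in a range up to 0.13. Depth limits Ltc4s most, at 0 to 39 reads.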

Other observations

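Of the 21 other pathway genes below the filter, 19 were above the lowest value in at least 1 sample, and 3 of these did not overlap between genotypes. The same held for 4.80% of all 16784 such genes and for 35.1% of the tested genes. Slco2a1, which encodes the prostaglandin transporter, was at 0.10, 0.346, 0.198 and 0.398 CPM in the WT samples and 0.672, 0.750, 0.730 and 0.794 CPM in the miR-21-/- samples (exact permutation p = 0.0286, adjusted p = 0.00900 by limma with no filter). Pla2g2d, a secreted phospholipase gene, was at 0.568, 1.04, 0.495 and 0.518 CPM in the WT samples and 0.224, 0.30, 0.0385 and 0.232 CPM in the miR-21-/- samples (exact permutation p = 0.0286, adjusted p = 0.0361 by limma with no filter). Ggt1, which encodes an enzyme that converts leukotriene C4 to D4, was at 0.602, 0.485, 0.247 and 0.239 CPM in the WT samples and 0.0374, 0.21, 0.0385 and 0.0662 CPM in the miR-21-/- samples (exact permutation p = 0.0286, adjusted p = 0.0473 by limma with no filter). All 3 were chosen after their values were seen, because the genotypes did not overlap. With 4 samples per genotype that alone gives an exact permutation p of 0.0286, so this p restates the choice.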
